A study of Mus musculus with 7 samples.

Results

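The Toll-like receptors (TLRs), the receptor chaperone Unc93b1 and the adaptor Myd88 were followed in RNA from splenic conventional dendritic cells of type 1 (cDC1), which cross-present antigen to CD8 T cells. The 10 genes, Tlr2, Tlr3, Tlr4, Tlr7, Tlr9, Tlr11, Tlr12, Tlr13, Unc93b1 and Myd88, were taken by annotated gene symbol from 19505 named genes, and each was read by 1 probe set. Per the labels of all 7 arrays, cells were sorted from spleens of C57BL/6 mice carrying B16-OVA tumors, a mouse melanoma line that expresses ovalbumin. The protocol text that the samples share names cDC1 and cDC2 of both tumor and spleen. The labels give 3 arrays of WT mice and 4 arrays of CD11c-Cre; OPA1 flox mice, called KO here, in which Cre acts in CD11c-expressing cells on the gene of the mitochondrial fusion GTPase OPA1. By these labels both groups share the strain, the tumor and the sort. The labels do not say whether the WT mice carried the Cre or the floxed allele, or how old the mice were. Nor do they say which arrays came from separate mice. The p-values therefore measure only the spread between arrays, which may be technical. The comparison asks how the RNA of these genes differs between KO and WT cDC1.

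TLRs recognise molecules of microbes and damaged cells. Tlr2 and Tlr4 act at the cell surface on bacterial lipoproteins and lipopolysaccharide, while Tlr3, Tlr7, Tlr9, Tlr11, Tlr12 and Tlr13 act in endosomes, to which UNC93B1 carries them. All of these receptors except TLR3, which uses the adaptor TRIF, signal through MYD88 to NF-kB and interferon regulatory factors. Mouse cDC1 are known for Tlr3 and for the profilin receptors Tlr11 and Tlr12.

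Values are log2 expression values as deposited, so a step of 1 is a doubling, and they are compared only within a gene, since probe sets differ in brightness. Opa1 had values of 8.14, 8.80 and 9.15 on the 3 WT arrays in order, and 7.70, 7.10, 6.85 and 8.24 on the 4 KO arrays, so the array labelled KO 4 lay above that labelled WT 1. The Opa1 difference was -1.22 (limma, adjusted p = 0.223). Where the probes lie relative to the deleted part was not analysed here. The cDC1 label was checked against 14 markers. Their mean was 11.76 to 11.84 in KO and 11.73 on WT 3, but 10.88 on WT 1 and 9.31 on WT 2, and 13 of the 14 markers had their lowest value on WT 2. On WT 2 Clec9a, a receptor for dead cells, read 7.29 and Cd8a 6.96, against 12.03 to 12.11 and 11.95 to 12.12 on the KO arrays. Melanocyte markers moved the other way, with a mean over 12 genes of 11.60, 11.96 and 9.11 for WT 1 to 3 and 7.26 to 8.08 in KO. WT 1 and WT 2 thus stood apart from the other arrays, and whether they came from spleen or from tumor was not tested, so that WT below means the arrays labelled WT. Results are given with WT 1 and WT 2 and without them. In bulk RNA, fewer cells of a type and less RNA per cell cannot be told apart.

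Tlr11 and Tlr12 form the endosomal receptor for profilin of protozoan parasites. Tlr11 had a value of 9.01 on WT 1, 6.20 on WT 2, 10.94 on WT 3, and of 11.04, 11.12, 11.00 and 10.79 on the 4 KO arrays in order. WT 3 lay inside the KO range and the other WT arrays lay below it, so the groups overlapped. The KO mean was 3.92 times WT 1 and 1.03 times WT 3 on a linear scale. On WT 2 the value was below the median of the negative control probe sets of that array, 6.26. The KO mean was 26.4 times that median, but the 95th percentile of those probe sets was 9.37 on WT 2. How far the KO mean exceeded WT 2 thus depends on the floor taken. The value on WT 1 was also below the 95th percentile of that array, 9.45. Of the 19505 genes, 12 had a wider range among the WT arrays. In KO the mean was 10.98 ± 0.14 (SD, n = 4) and in WT 8.72 ± 2.38 (SD, n = 3), a difference KO minus WT of 2.27 with a standard error of 0.92 (limma, adjusted p = 0.245). Without WT 1 and WT 2 the difference was 0.04, with a 95% interval of -0.33 to 0.42.

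Tlr12 had a value of 8.80 on WT 1, 7.64 on WT 2, 10.67 on WT 3, and of 10.61, 10.62, 10.63 and 10.59 on the 4 KO arrays in order. The KO arrays lay within 0.041 log2 units of each other, WT 3 lay just above them, and WT 1 and WT 2 lay far below. The KO mean was 3.51 times WT 1 and 7.87 times WT 2. Both of these WT values were below the 95th percentile of the negative controls of their arrays, 9.45 and 9.37. The difference was 1.58 with a standard error of 0.59 (limma, adjusted p = 0.229). Without WT 1 and WT 2 it was -0.06, with a 95% interval of -0.36 to 0.24.

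Tlr3, the receptor for double-stranded RNA, had a value of 11.84 on WT 1, 10.54 on WT 2, 12.45 on WT 3, and of 12.52, 12.68, 12.61 and 12.35 on the 4 KO arrays in order. As for Tlr11, WT 2 was the lowest array, WT 1 the next, and WT 3 lay among the KO arrays. The KO mean was 3.99 times WT 2 and 1.63 times WT 1. The difference was 0.93 with a standard error of 0.39 (limma, adjusted p = 0.249), and without WT 1 and WT 2 it was 0.09, with a 95% interval of -0.28 to 0.47.

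**Figure D1:**
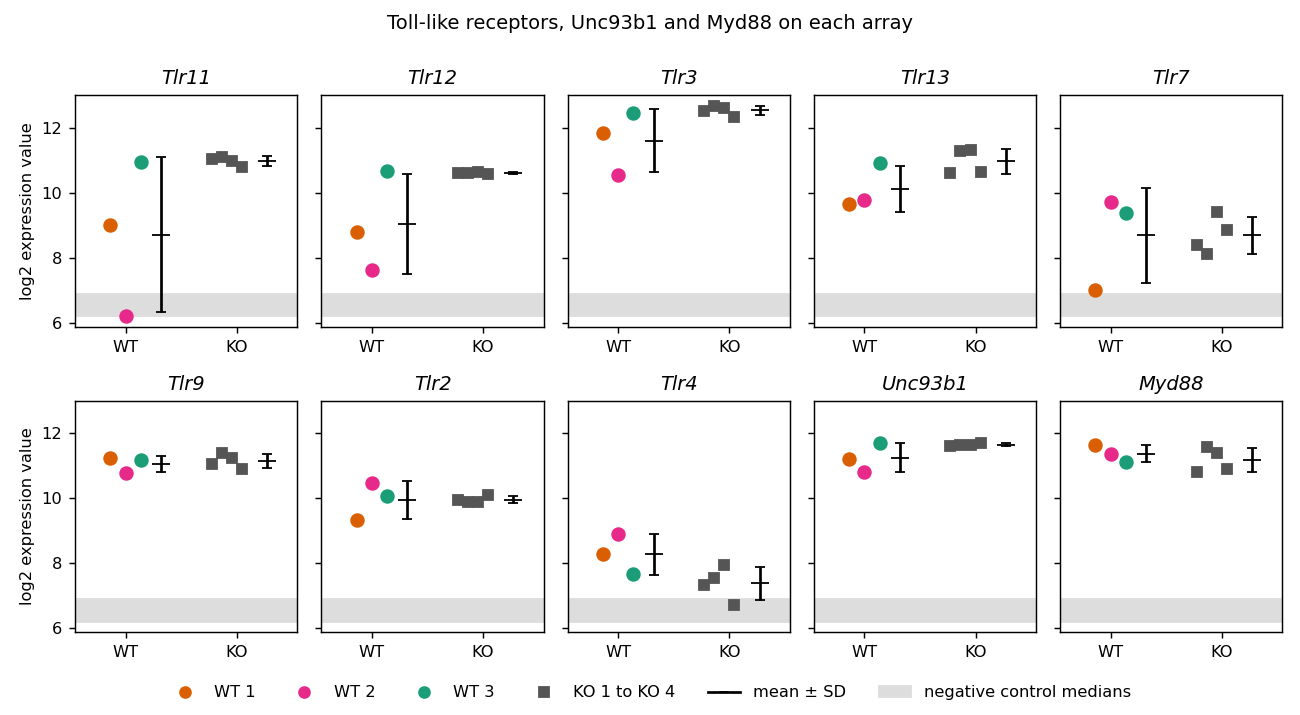
Log2 expression value (vertical axis) of each gene on the 3 WT arrays (coloured circles) and the 4 KO arrays (grey squares), with the mean ± SD of each group in black and the range of the negative control medians, 6.19 to 6.88, as a grey band. Tlr11, Tlr12 and Tlr3 are low on WT 1 and WT 2 and alike on WT 3 and the KO arrays, and Tlr11 on WT 2, at 6.20, reaches the band.

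The stretches of DNA before these 3 genes are shown as a description. WT 1 and WT 2 were the lowest arrays for them, as also for Tlr13, Unc93b1 and 22% of all genes. They are the 250 bases before each start in RefSeq, build GRCm38.p6, on the strand of the gene, with matches to any of 3 motifs in capitals. The motifs, searched on both strands, were the interferon-stimulated response element (GAAA, any 2 bases, GAAA), an NF-kB site (GGG, any 3 bases, TTCC) and a PU.1 or ETS site (GAGGAAGT), which do not overlap each other in these windows.
Tlr11, chr14:50357664-50357913, plus strand: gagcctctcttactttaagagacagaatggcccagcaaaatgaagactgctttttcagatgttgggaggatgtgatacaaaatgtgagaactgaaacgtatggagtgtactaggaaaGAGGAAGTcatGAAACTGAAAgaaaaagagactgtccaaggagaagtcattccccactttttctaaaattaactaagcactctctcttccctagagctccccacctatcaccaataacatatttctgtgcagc
Tlr12, chr4:128618620-128618869, minus strand: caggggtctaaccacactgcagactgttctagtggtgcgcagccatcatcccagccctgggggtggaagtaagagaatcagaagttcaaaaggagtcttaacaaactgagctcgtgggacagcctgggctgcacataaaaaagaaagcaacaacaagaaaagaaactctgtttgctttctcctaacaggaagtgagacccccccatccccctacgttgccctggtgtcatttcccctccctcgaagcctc
Tlr3, chr8:45410381-45410630, minus strand: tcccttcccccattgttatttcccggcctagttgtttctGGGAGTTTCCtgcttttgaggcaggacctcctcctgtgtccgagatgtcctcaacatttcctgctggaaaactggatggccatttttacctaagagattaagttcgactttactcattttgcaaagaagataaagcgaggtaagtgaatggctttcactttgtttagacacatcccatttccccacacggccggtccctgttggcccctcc
In Tlr11 the PU.1 or ETS letters GAGGAAGT lay 133 to 126 bases before the start and the interferon element letters GAAACTGAAA 122 to 113 bases before it. Tlr3 held the NF-kB letters GGGAGTTTCC 211 to 202 bases before its start, and the Tlr12 window held none of the 3 motifs. Of 32851 windows of that length, 2.98% held the interferon element, 4.65% the NF-kB site and 2.44% the PU.1 or ETS site. Of the 10 genes 7 had a window in the table, all but Tlr4, Tlr7 and Unc93b1. Among the others Tlr2 held the NF-kB letters GGGGAATTCC and Myd88 the interferon element letters GAAAGCGAAA, while Tlr9 and Tlr13 held none. A match is a run of letters, not a measured site.

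Tlr13, the receptor for bacterial ribosomal RNA, had a value of 9.65 on WT 1, 9.77 on WT 2, 10.94 on WT 3, and of 10.62, 11.30, 11.31 and 10.66 on the 4 KO arrays in order. WT 1 and WT 2 were again the lowest arrays, but here they were alike, and the KO arrays fell into a higher and a lower pair with WT 3 between them. The difference was 0.85 with a standard error of 0.34 (limma, adjusted p = 0.239), and without WT 1 and WT 2 it was 0.03, with a 95% interval of -0.65 to 0.72.

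Unc93b1, the membrane protein that carries endosomal TLRs out of the endoplasmic reticulum, had a value of 11.22 on WT 1, 10.80 on WT 2, 11.71 on WT 3, and of 11.61, 11.63, 11.63 and 11.70 on the 4 KO arrays in order. It showed the order of Tlr3 with smaller steps, WT 2 lowest, WT 1 next and WT 3 beside the KO arrays. The difference was 0.40 with a standard error of 0.19 (limma, adjusted p = 0.280), and without WT 1 and WT 2 it was -0.06, with a 95% interval of -0.37 to 0.24.

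Tlr9, the endosomal receptor for DNA with unmethylated CpG, had values of 11.24, 10.77 and 11.17 on the 3 WT arrays in order, and 11.04, 11.40, 11.23 and 10.91 on the 4 KO arrays. WT 2 was the lowest array here too, but by a small step, and the groups overlapped. The difference was 0.09 with a 95% interval of -0.29 to 0.46 (limma, adjusted p = 0.771), and -0.02 without WT 1 and WT 2. Of the endosomal receptors Tlr9 had the narrowest interval over all arrays.

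Tlr7, the endosomal receptor for single-stranded RNA, is known to be low in mouse cDC1 and higher in plasmacytoid cells, cDC2 and macrophages. It had a value of 7.01 on WT 1, 9.70 on WT 2, 9.37 on WT 3, and of 8.39, 8.12, 9.42 and 8.85 on the 4 KO arrays in order. WT 1 was the lowest of the arrays and WT 2 the highest, so these arrays, alike for Tlr13, stood at opposite ends for Tlr7. On every array but WT 2 the value was at or below the 95th percentile of the negative controls. The group means were 8.69 in both, a difference of 0.00 and a 95% interval of -1.46 to 1.46 (limma, adjusted p = 0.999), and without WT 1 and WT 2 the difference was -0.68, with an interval of -1.64 to 0.29. The sign of the first value turned under several settings, as given with the processing alternatives. Markers of other cells differed between the same arrays. The mean of 9 cDC2 markers was 8.25, 10.29 and 8.89 for WT 1 to 3 and 8.16 to 8.70 in KO, and 6 of the 9 had a lower mean in KO. That of 12 monocyte and macrophage markers was 8.74, 10.09 and 9.11 for WT 1 to 3 and 8.36 to 8.83 in KO, with 10 of 12 lower in KO. That of 8 plasmacytoid markers was 9.15, 9.22 and 9.83 for WT 1 to 3 and 9.40 to 9.54 in KO. None of the markers in these lists was at or below the negative control median on every array. The part of other cell types in the Tlr7 values was not tested.

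Tlr2 and Tlr4 are the surface receptors. Tlr4 had values of 8.26, 8.90 and 7.65 on the 3 WT arrays in order, and 7.31, 7.55, 7.93 and 6.71 on the 4 KO arrays. WT 1 and WT 2 were the highest arrays, the reverse of Tlr11, and KO 4 was the lowest, below the negative control median of its array, 6.88. The difference was -0.90 with a standard error of 0.35 (limma, adjusted p = 0.235), and without WT 1 and WT 2 it was -0.28, with a 95% interval of -1.15 to 0.60. Tlr2 had values of 9.31, 10.47 and 10.06 on the 3 WT arrays in order, and 9.95, 9.89, 9.89 and 10.09 on the 4 KO arrays. The KO arrays were alike, and WT 1 was the lowest array and WT 2 the highest, as for Tlr7. The difference was 0.01 with a 95% interval of -0.56 to 0.57 (limma, adjusted p = 0.988), and without WT 1 and WT 2 it was -0.11.

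Myd88, the adaptor shared by most TLRs and the interleukin-1 receptors, had values of 11.62, 11.37 and 11.10 on the 3 WT arrays in order, and 10.82, 11.57, 11.40 and 10.90 on the 4 KO arrays. It was the only one of the 10 genes with a larger SD in KO, 0.37, than in WT, 0.26, with KO 1 and KO 4 below KO 2 and KO 3. The difference was -0.19 with a 95% interval of -0.70 to 0.31 (limma, adjusted p = 0.616), and without WT 1 and WT 2 it was 0.07.

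**Figure D2:**
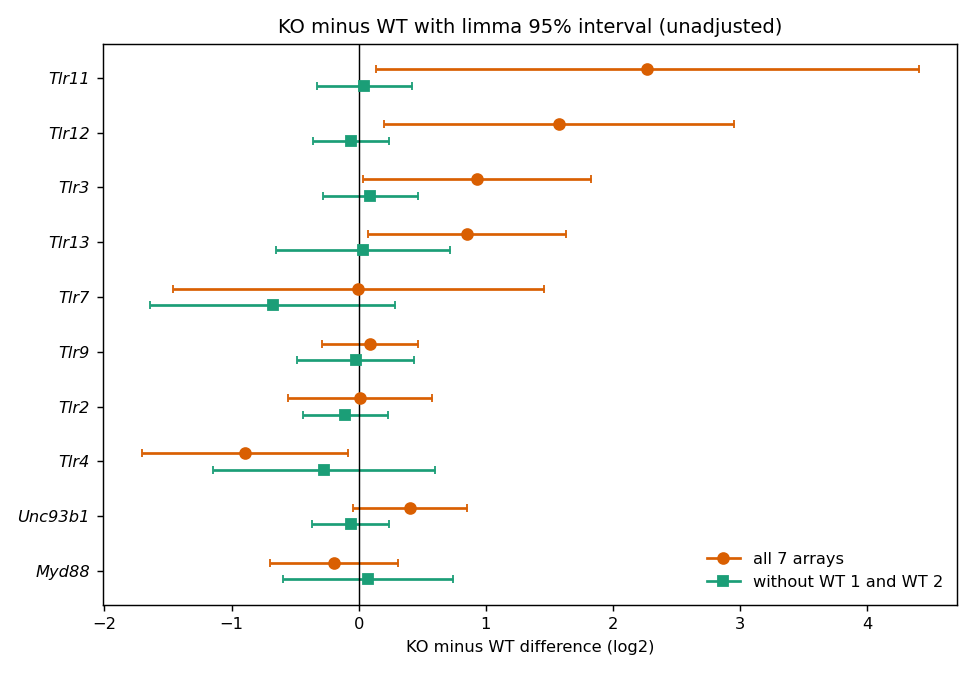
KO minus WT difference in log2 units (horizontal axis) for each gene, as a point with its unadjusted 95% limma interval, over all 7 arrays (circles) and without WT 1 and WT 2 (squares), where WT 3 alone stands for WT. Tlr11, at 2.27, and Tlr12, at 1.58, move to 0.04 and -0.06 when WT 1 and WT 2 are left out.

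Read as a group, 0 of the 10 genes passed the adjusted threshold of 0.05 over all genes in limma, as did 0% of the 19505 genes. At an unadjusted p under 0.05 there were 5 of 10, against 19.6% of all genes. Tlr3, Tlr11, Tlr12 and Tlr13 were on the higher side in KO, against 8.98% of all genes, and Tlr4 on the lower side, against 10.6%. With the median of every array set equal those shares were 12.7% and 9.3%, with the same 4 and 1 counts of members. Members and pathway lists were chosen with earlier results of these data known. Counts set beside shares of all genes, here and below, are thus a description and not a test. In 0 of the 10 genes did all KO values lie above or all below the WT values, against 13.8% of all genes (7.85% above and 5.92% below). The median difference was 0.24 for the 10 genes and 0.06 for all genes, and 7 of 10 were higher in KO against 59.9% of all genes. The median SD among WT arrays was 0.67 for the 10 genes and 0.20 for all genes, and among KO arrays 0.18 and 0.14. In an exact two-sided permutation test over 35 splits p was 0.114 for Tlr3, Tlr4 and Tlr11 and above that for the others, and no gene could have gone below 0.0571 in this design.

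The calls turned on WT 3. Without it, 6 of 10 genes passed the adjusted threshold in limma, against 25.3% of all genes. Tlr3, Tlr11, Tlr12, Tlr13 and Unc93b1 were then higher in KO, against 11.4% of all genes, by 1.35, 3.38, 2.39, 1.26 and 0.63 (limma, adjusted p between 0.000273 and 0.0102). Tlr4 was then lower, against 13.8% of all genes, with a difference of -1.21 (limma, adjusted p = 0.0203). In the same 6 genes the groups then did not overlap, against 46% of all genes. Those values compare the KO arrays with WT 1 and WT 2, the arrays with low cDC1 and high melanocyte markers. Without WT 1 and WT 2 instead, 0 of 10 passed at an adjusted p (0% of all genes) and 0 of 10 at an unadjusted p under 0.05 (5.92% of all genes), and the median difference was -0.04 against 0.02 for all genes. The groups then did not overlap in 2 of 10 genes, against 42.3% of all genes, both lower in KO, against 18.1%. That setting has 1 WT array, whose spread is taken to be that of the KO arrays.

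**Figure D3:**
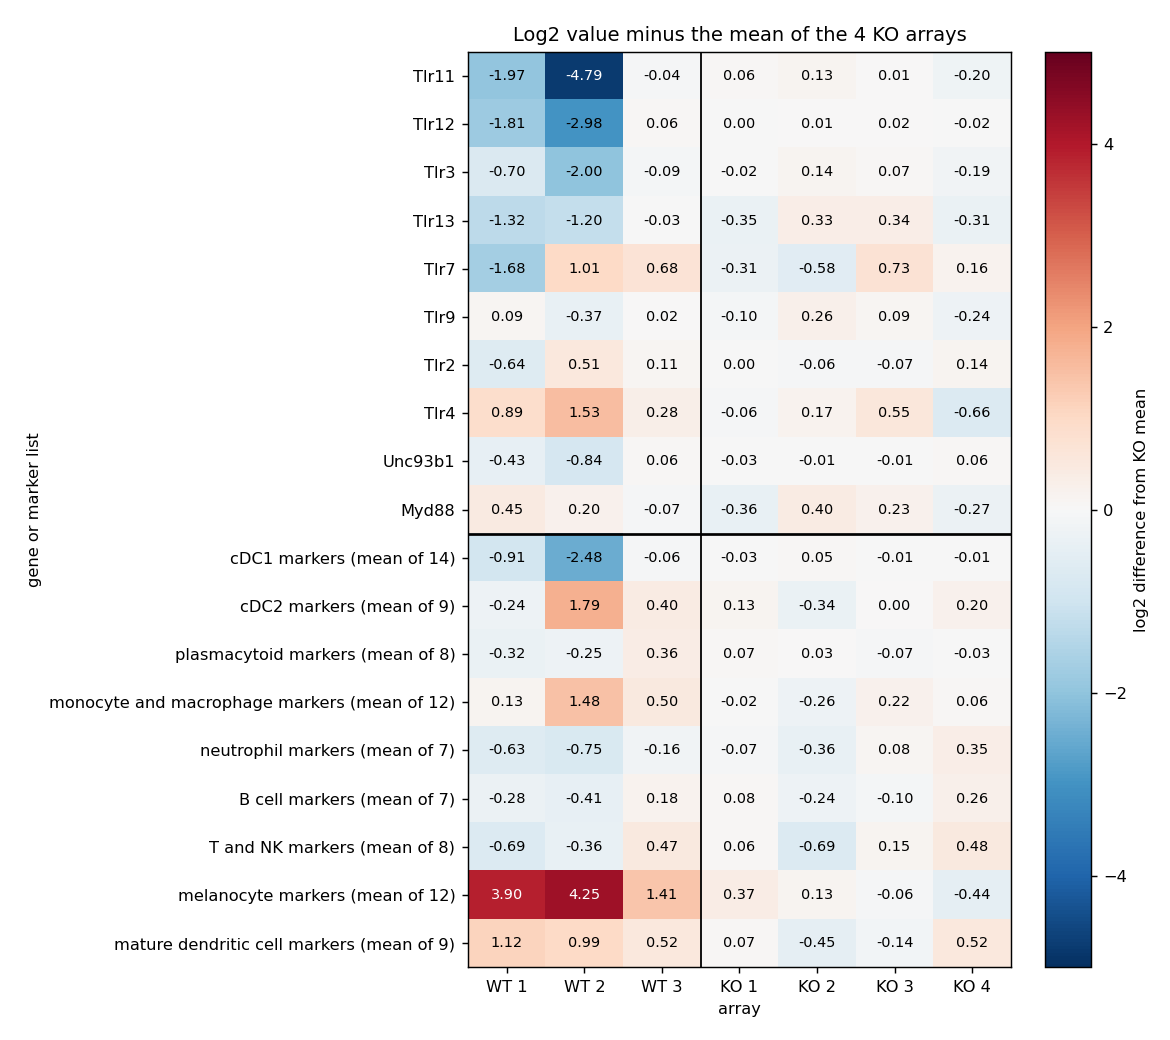
Log2 value minus the mean of the 4 KO arrays (colour and printed number) for the 10 genes above the black line and for the mean of each marker list below it, with 1 column per array. On WT 2 Tlr11 stands at -4.79, Tlr12 at -2.98 and the cDC1 markers at -2.48, while the melanocyte markers stand at 4.25. On WT 3 every gene except Tlr7 and Tlr4 lies within 0.11 of the KO mean.

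The values of the members and the marker lists were set side by side on each array. Relative to the KO mean, the cDC1 list stood at -0.91, -2.48 and -0.06 for WT 1 to 3, and all 14 markers had a higher mean in KO. The melanocyte list stood at 3.90, 4.25 and 1.41, and each of its 12 genes was lower on average in KO. Markers of mature dendritic cells stood at 1.12, 0.99 and 0.52, with 8 of 9 lower in KO. Neutrophil markers stood at -0.63, -0.75 and -0.16, B cell markers at -0.28, -0.41 and 0.18, and T and NK markers at -0.69, -0.36 and 0.47, with 7 of 7, 6 of 7 and 4 of 8 higher in KO. Irf8, Relb and Cd40 stand both in a marker list and in a pathway list. The steps of Tlr11, Tlr12, Tlr3 and Unc93b1 from WT 3 to WT 1 to WT 2 ran in the order of the cDC1 list, those of Tlr4 in the order of the melanocyte list. The melanocyte order is the reverse of the cDC1 order on these arrays, so the order of a gene cannot tell the lists apart. WT 1 and WT 2 lay below the other 5 arrays in Tlr3, Tlr11, Tlr12, Tlr13 and Unc93b1, as in 22% of all genes, and above them in Tlr4, as in 19.4% of all genes. The part of cell makeup in these values was not tested.

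For Tlr3, Tlr7 and Tlr12 the named genes with the most similar profile over the 7 arrays are given as a description, with the likeness over all arrays and without WT 1 and WT 2. For Tlr3 they were Pld4, an endosomal exonuclease, Cpne9 and Fam149a, with Pearson r of 0.997 for each. Over the 5 arrays without WT 1 and WT 2 these r were 0.91 to 0.93. Cpne9 lay near background, with 5.83 on WT 2 and 6.45 on KO 2, against negative control medians of 6.26 and 6.49. For Tlr12 they were Havcr2, which encodes TIM-3, at r = 0.999, and Septin1 and Nsmaf at 0.997. Over the 5 arrays those 3 fell to 0.61, 0.88 and -0.66. For Tlr7 they were Vps13c, Gatad2a and Crebzf at 0.972, 0.969 and 0.963, and 0.88 to 0.92 over the 5 arrays.

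Of 87 other genes of the TLR pathway in 9 lists, 78 were measured and 9 were not analysed here. Of the 78, 0 passed the adjusted threshold in limma (0% of all genes), with 0.223 as the lowest adjusted p. At an unadjusted p under 0.05 there were 9 higher and 11 lower in KO, 25.6% against 19.6% of all genes, and their median difference was 0.00. Without WT 3 the count past the adjusted threshold was 26, with 14 higher and 12 lower, against 25.3% of all genes, and without WT 1 and WT 2 it was 0. Over all 7 arrays 4 of the 78 were higher and 4 lower in KO without overlap between the groups. Of all genes 13.8% had no overlap, 7.85% higher and 5.92% lower in KO. The genes named below are those under an unadjusted p of 0.05, at most 4 per list, and are given as values.

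Among the other receptors, 1 of 4 was under that p, against 19.6% of all genes. This was Tlr6, the partner of Tlr2 for diacylated lipoproteins. It had values of 6.23, 6.58 and 7.23 on the 3 WT arrays in order, and 7.63, 7.24, 7.36 and 7.57 on the 4 KO arrays, without overlap, though KO 2 lay next to WT 3. Its difference was 0.77, and 0.22 without WT 1 and WT 2. Tlr6 was dim, and its value on WT 1 was close to the negative control median of that array, 6.19. On every array Tlr6 was below the 95th percentile of the negative controls. Whether its probes also match the closely related Tlr1 was not tested. Among 6 co-receptors 1 was under that p, against 19.6% of all genes. This was Cd36, a scavenger receptor that works with Tlr2 and Tlr6 and is also high on cDC1. Cd36 had values of 9.55, 8.77 and 11.49 on the 3 WT arrays in order, and 11.31, 11.51, 11.40 and 11.48 on the 4 KO arrays, with WT 2 lowest, WT 1 next and WT 3 inside the KO range. Its difference was 1.49, and -0.07 without WT 1 and WT 2.

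Of 10 genes of TLR folding and trafficking 2 were higher and 2 lower at that p, against 8.98% and 10.6% of all genes. Cnpy3, a chaperone that folds TLRs with the heat shock protein gp96, had values of 9.04, 8.82 and 8.99 on the 3 WT arrays in order, and 9.27, 9.35, 9.30 and 9.21 on the 4 KO arrays, so every KO array lay above every WT array. Its difference of 0.33 was much the same without WT 1 and WT 2, at 0.29 (limma, adjusted p = 0.840). Ap3b1, a subunit of the AP-3 sorting adaptor, differed by 0.35 with all arrays and 0.04 without WT 1 and WT 2. Slc15a3 and Slc15a4, endolysosomal transporters of histidine and peptides, differed by -1.06 and -0.65, and by -0.43 and -0.10 without WT 1 and WT 2. Of 5 endosomal proteases that cut TLR ectodomains 3 were lower at that p, against 10.6% of all genes. Lgmn, Ctsl and Ctsk, which encode legumain and cathepsins L and K, differed by -0.73, -0.91 and -0.78, and without WT 1 and WT 2 by -0.04, -0.19 and -0.17. Ctsk was near background, at 6.67, 6.34 and 6.81 on KO 1, KO 3 and KO 4. The negative control medians of those arrays were higher, at 6.88, 6.67 and 6.88.

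All 5 adaptors other than Myd88 had a higher mean in KO, against 59.9% of all genes. Sarm1 among them lay below the negative control median on WT 2 and on every KO array. At that p 2 of the adaptors were higher, against 8.98% of all genes. Without WT 1 and WT 2, 4 of 5 had a higher mean in KO, against 55.3% of all genes. Tirap, which brings MYD88 to surface TLRs, had values of 8.85, 8.63 and 8.74 on the 3 WT arrays in order, and 9.27, 9.01, 9.04 and 9.01 on the 4 KO arrays, without overlap. Its difference was 0.34 with and without WT 1 and WT 2 (limma, adjusted p = 0.223 and 0.834). Pik3ap1, the adaptor BCAP that links TLRs to phosphoinositide 3-kinase, had values of 11.72, 11.49 and 11.91 in WT and 12.09, 12.00, 12.03 and 12.05 in KO, also without overlap, a difference of 0.33 that was 0.13 without WT 1 and WT 2. Of 14 measured kinases and ubiquitin ligases 0 were under that p, against 19.6% of all genes, and 7 were higher and 7 lower on average in KO.

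Of 8 measured transcription factors 2 were lower at that p, against 10.6% of all genes. Relb, an NF-kB subunit, had values of 11.08, 10.88 and 10.84 in WT and 10.45, 10.03, 10.38 and 10.80 in KO, without overlap but with KO 4 close to WT 3, a difference of -0.52 that was -0.42 without WT 1 and WT 2. Irf7, which drives interferon genes downstream of TLR7 and TLR9, differed by -0.81, and by 0.04 without WT 1 and WT 2. Of 9 measured inhibitors 3 were higher and 1 lower at that p, against 8.98% and 10.6% of all genes. Nlrx1 and Sigirr differed by 0.29 and 0.39, and by 0.39 and 0.43 without WT 1 and WT 2. Cyld and Tollip differed by 0.60 and -0.49, and by -0.12 and 0.05 without WT 1 and WT 2.

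Of the genes that TLRs induce 13 of 17 had a lower mean in KO, against 40.1% of all genes, with a median difference of -0.20. At an unadjusted p under 0.05 in limma 3 were lower, against 10.6% of all genes. Ccl5, a T cell chemokine, had values of 10.43, 10.96 and 10.15 on the 3 WT arrays in order, and 9.80, 9.32, 9.31 and 9.98 on the 4 KO arrays, so every KO array lay below every WT array. Its difference was -0.91 (limma, adjusted p = 0.223), and -0.54 without WT 1 and WT 2. Cxcl10, an interferon-induced chemokine, had values of 8.98, 10.04 and 9.18 in WT and 8.73, 8.20, 8.09 and 8.92 in KO, also without overlap, a difference of -0.92 that was -0.69 without WT 1 and WT 2. KO 1 and KO 4 were the KO arrays nearest to WT in both chemokines. The cytokine gene Il1b differed by -0.36, and by -0.37 without WT 1 and WT 2. Against WT 3 alone 16 of 17 were lower in KO, where 44.7% of all genes were, with a median difference of -0.37 against 0.02. Of these 4 were under an unadjusted p of 0.05 (limma, adjusted p between 0.805 and 0.834), against 5.92% of all genes. They were Ccl3, Ccl4, Il1b and Il6, with differences of -0.37, -0.66, -0.37 and -1.17, all but Il1b named after their values were seen. These counts rest on the single array WT 3, on which melanocyte, mature dendritic cell and monocyte and macrophage markers stood 1.41, 0.52 and 0.50 above the KO mean. The part of those cells in the values was not tested.

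**Figure D4:**
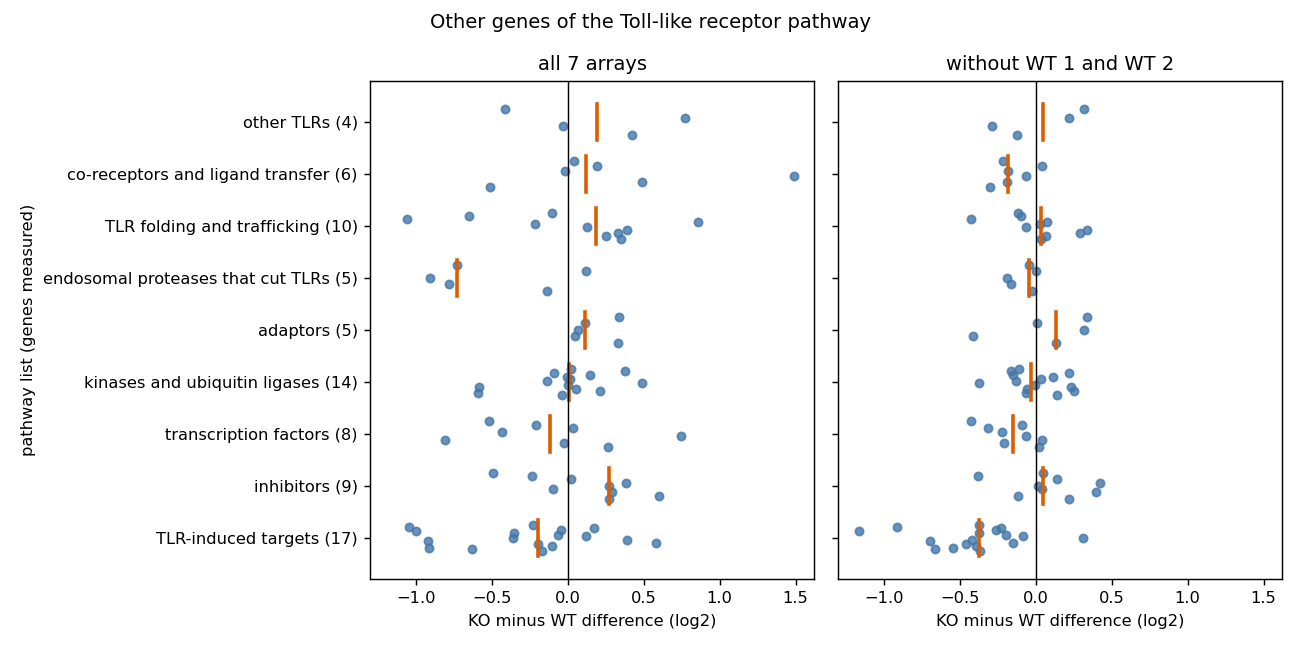
KO minus WT difference in log2 units (horizontal axis) of each measured gene (points) in the 9 pathway lists (rows, with the number of genes), over all 7 arrays on the left and without WT 1 and WT 2 on the right, with the median of each list as an orange bar. The median of the endosomal proteases moves from -0.73 to -0.04, and that of the TLR-induced targets from -0.20 to -0.37.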

How the data were processed

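RNA of 7 arrays was summarised by the authors to log2 values for 28846 probe sets. RMA and version 1.1 of Affymetrix Expression Console were named for this, per the submitters' processing notes. Values from 3.68 to 14.28 gave the scale. The genome build, and which arrays were normalized together, are not given in the sources used here. RMA compresses small signals, so differences of dim genes are understated. Of 22206 transcript probe sets 19572 had 1 gene symbol in the platform annotation, 0 had several and 2634 had none. The probe set with the highest mean per symbol was kept, which left 19505 genes. All 7 value columns were matched to samples by accession and title.

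KO and WT were compared by lmFit and eBayes of limma 3.58.1 (R 4.3.3) over all genes, without a covariate, with Benjamini-Hochberg adjustment and a threshold of 0.05; the scripts were tested on simulated data. Intervals are unadjusted. Named were all 10 members, the pathway genes under an unadjusted p of 0.05 (at most 4 per list), and the 3 genes most like Tlr3, Tlr7 and Tlr12. Members and lists were chosen with earlier results of these data known. Negative controls are 5222 probe sets named as such, a broad set whose 95th percentile was 9.37 to 10.19. Of the members, 9 had a mean above the median transcript probe set, 8.09, all but Tlr4. The number of arrays limits the precision. Alternatives were each array left out, WT 1 and WT 2 left out, median centring, quantile normalization, the replicate number as a block, a dim filter, trended and robust variance, array weights, other probe set choices and, for the members, a permutation test.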

Additional observations from a re-analysis of the deposited data

Results flagged for a closer look

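Among the 4 KO arrays of the 30 genes named, 2 genes had an array far from the others, where chance gives about 1 in 20. Tirap read 9.27 on KO 1, above the 9.01 to 9.04 of the other KO arrays. Il1b read 12.97 on KO 4, above the 12.68 to 12.71 of the other KO arrays.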

How the results depend on the processing

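Leaving out each array in turn gave 0 to 4931 genes past the threshold, 0 to 6 of the 10 members, 0 to 26 of the pathway genes and 0 to 6 members without overlap between groups, against 16.9% to 46% of all genes. The 6 came without WT 3 (46% of all genes), 1 without KO 3 (17.7%) and 2 without KO 4 (20.3%). Of these settings only the one without WT 3 gave genes past the threshold, 25.3% of all genes. Array weights, which gave WT 3 the lowest weight (0.24), called 4458 of 19505 genes, 2005 higher and 2453 lower in KO. They called 5 of the 10 members (Tlr3, Tlr11, Tlr12, Tlr13 and Unc93b1, all higher in KO). They also called 22 of 78 pathway genes, 10 higher and 12 lower in KO. Without WT 1 and WT 2, 2 members had no overlap, Tlr12 and Unc93b1, both lower in KO, against 42.3% of all genes (18.1% lower). In that setting the direction turned for Tlr2 (-0.11), Tlr9 (-0.024), Tlr12 (-0.060), Unc93b1 (-0.062), Myd88 (0.071), Cd36 (-0.066), Irf7 (0.041), Tollip (0.048) and Cyld (-0.12). When single arrays were left out, the difference ranged from -0.31 to 0.27 for Tlr2, from -0.84 to 0.50 for Tlr7 and from -0.057 to 0.17 for Tlr9. Tlr7 also turned with median centring (0.049), quantile normalization (0.065) and array weights (1.02). With the replicate number as a block Tlr2 was -0.037 and 0 members were called. Deviations from the group mean had r of -0.04, 0.05 and -0.02 between arrays of the same number. Those of WT carry the split of WT 1 and WT 2 from WT 3, which KO lacks, so these r cannot show whether the numbers are pairs. The main fit did not take the numbers as pairs. Of 487 values under alternatives for the named genes, 426 kept direction and side of the threshold, 41 gained a call and 20 turned. The cause of these changes was not tested. The dim filter, the trended and robust variance and the permutation test leave the difference itself as it was, so direction could not turn there. Values that kept direction include some that shrank, such as Tlr11 from 2.27 to 0.04 without WT 1 and WT 2. Dim genes such as Tlr4, Tlr6 and Ctsk are limited by signal over background. Tlr4 was at or below the 95th percentile of the negative controls on every array, and Tlr7 on every array but WT 2. Tlr2 was so on WT 1, KO 1, KO 3 and KO 4.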
